A study of Homo sapiens with 4 samples.

Results

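Clade B serpins are a family of protease inhibitors, and 10 of their genes were followed here among the 26726 genes listed for HN12 cells with and without ATAD3A. The genes were chosen by symbol from a list that named them, with no measured value in the rule. By their Ensembl identifiers in GENCODE release 29 (GRCh38), SERPINB1, SERPINB9 and SERPINB6 lie within 140 kb at chr6:2832332-2972165, and SERPINB5, SERPINB13, SERPINB4, SERPINB3, SERPINB7, SERPINB2 and SERPINB8 lie in that order within 543 kb at chr18:63476761-64019779. SERPINB10, a further gene of the chromosome 18 cluster, had 1 and 2 counts in the KO libraries and 0 in both WT libraries, and SERPINB11 and SERPINB12 were not analysed here.

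HN12 is a cell line from a head and neck squamous cell carcinoma (HNSCC). The groups were ATAD3A KO cells, in which CRISPR/Cas9 had been used against the gene for this mitochondrial AAA-domain ATPase, and their parental cells (WT), with 2 RNA-seq libraries each from duplicate cultures. KO clones had been selected with puromycin after transfection, a step not described for the parental cells, and no other drug treatment is described for either group. Both were grown in a DMEM-based medium with fetal bovine serum. KO clones were grown from single cells, and the sources used here do not say from which of them the KO libraries came, so traits of a clone and loss of ATAD3A cannot be told apart. Library totals were 18943547 and 16805766 counts in KO 1 and KO 2, and 15173766 and 13569971 counts in WT 1 and WT 2. ATAD3A itself had 702 and 492 counts in the KO libraries against 1802 and 1471 in the WT libraries, which follows the labels (log2 fold change -1.70, SE 0.091, adjusted p = 1.58e-17). This and all later tests, unless another is named, are quasi-likelihood tests in edgeR, and adjusted p-values are by the Benjamini-Hochberg method over all genes tested.

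Unlike most serpins, which are secreted, clade B members lack a classical signal peptide and act mainly inside the cell, where many of them trap serine or cysteine proteases by presenting a reactive loop that the protease cuts and then cannot leave. Stratified squamous epithelium makes several of them, and the pair SERPINB3 and SERPINB4 are known as the squamous cell carcinoma antigens. HN12 expressed markers of such epithelium. The 10 squamous markers summed to 2439 and 2417 RPKM (read counts scaled to gene length and library total) in KO and to 1178 and 1197 RPKM in WT. By the mean over all 4 libraries the most abundant was KRT5, a basal keratin, with means of 945 RPKM in KO and 160 RPKM in WT. In WT alone SFN (439 RPKM), PERP (196 RPKM) and EPCAM (169 RPKM) had higher means than KRT5. Of these 10 markers 6 were higher and 4 lower in KO, beside 20.4% and 19.1% of all genes tested. The keratins KRT6A (log2 fold change 2.76), KRT5 (2.63), KRT14 (2.20) and KRT17 (0.94) rose most. The desmosomal cadherins DSC3 (-1.13) and DSG3 (-1.12), both chromosome 18 genes, EPCAM (-0.34) and TP63 (-0.28) were lower, with a highest adjusted p of 0.000164 among these 8. With correction for GC content and length TP63 (-0.12, adjusted p = 0.0566) and SFN (0.0095, adjusted p = 0.891, from 0.39) did not pass. Their part in the serpin results was not tested. Markers of other cell types that make clade B serpins were low in all 4 libraries, with CD14 the most abundant leukocyte marker at a mean of 1.61 RPKM, CDH5 the only endothelial marker analysed at 0.0914 RPKM, and COL1A1 the most abundant fibroblast marker at 1.90 RPKM.

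The family was dominated by 1 gene in both groups. In order of RPKM the 7 genes with appreciable expression were SERPINB2, SERPINB5, SERPINB6, SERPINB1, SERPINB7, SERPINB8 and SERPINB13, and this order was the same in KO and WT, with no overlap between the libraries of neighbouring genes in either group. SERPINB2 held 49.3% of the family's summed RPKM in WT and 51.5% in KO, followed by SERPINB5 with 19.4% and 18.02%. SERPINB13 held 0.223% in WT and 0.960% in KO. SERPINB3, SERPINB4 and SERPINB9 were at 10 counts or fewer in every library.

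**Figure D1:**
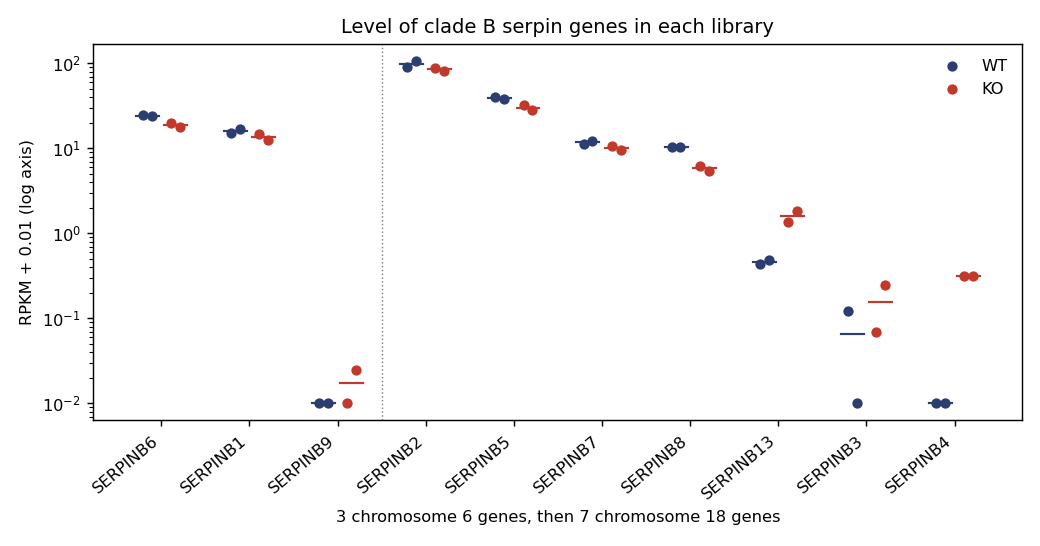
Level of the 10 clade B serpin genes in each library, as RPKM plus 0.01 on a log axis, with WT in blue and KO in red. Each point is 1 library and each line the mean of 2, and among the 7 tested genes the KO libraries stood above the WT libraries in SERPINB13 alone (1.36 and 1.83 RPKM against 0.423 and 0.473 RPKM).

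Of the 10 members 7 passed the filter on low counts and were tested. SERPINB13 was higher in KO, SERPINB8, SERPINB5 and SERPINB6 were lower, and SERPINB1, SERPINB2 and SERPINB7 did not pass the threshold of an adjusted p under 0.05. For comparison, 20.4% of the 15104 genes tested were higher in KO and 19.1% were lower, 39.5% in either direction. Under the study's looser p and minimum fold, 1 member (SERPINB13) was higher and 1 (SERPINB8) lower, beside 17.0% and 12.2% of all genes tested. The members' median log2 fold change was -0.14, beside -0.0042 over all genes tested. In these bulk samples a change in the share of cells that make a serpin and a change in its RNA per cell cannot be told apart.

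SERPINB13 (ENSG00000197641), also called headpin, is an inhibitor of lysosomal cysteine cathepsins such as cathepsin L and cathepsin K that was first described as a gene low in head and neck cancer. It had 80 and 96 counts in KO 1 and KO 2 and 20 counts in each WT library, or 1.36 and 1.83 RPKM against 0.423 and 0.473 RPKM (means 1.595 ± 0.338 and 0.448 ± 0.0354, SD, n = 2 each). Both KO libraries were above both WT libraries, as were 34.1% of all genes tested. The fold change was 3.72 (log2 1.89, SE 0.35, adjusted p = 3.21e-05), and its size rests on the 20 counts of each WT library. No other tested gene of chromosome 18 had as high a log2 fold change, the next being ANKRD29 at 0.77 and LAMA3 at 0.76.

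SERPINB8 (ENSG00000166401), an inhibitor that acts on the proprotein convertase furin, went the other way. Its levels were 6.24 and 5.36 RPKM in KO and 10.4 and 10.3 RPKM in WT (means 5.80 ± 0.625 and 10.3 ± 0.0895, SD, n = 2 each). The WT libraries lay close together and above both KO libraries, a separation in this direction that 34.0% of all genes tested showed. Expression in KO was 0.589 of that in WT (log2 fold change -0.76, SE 0.12, adjusted p = 1.45e-06). HMSD, which overlaps SERPINB8 and shares 9.42% of its 50-nt stretches, had between 1 and 5 counts per library.

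The stretches before the RefSeq starts of these 2 genes are shown because both held the same short element although the genes moved in opposite directions. Each run gives the 150 bases before the start on the gene's own strand (GRCh38.p14), SERPINB13 at chr18:63587193-63587342 on the plus strand and SERPINB8 at chr18:63969931-63970080 on the plus strand, with matches to the searched motifs in capitals.
SERPINB13: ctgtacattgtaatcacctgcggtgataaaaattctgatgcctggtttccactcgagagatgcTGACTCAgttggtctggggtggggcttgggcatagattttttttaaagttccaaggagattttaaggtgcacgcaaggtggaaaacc
SERPINB8: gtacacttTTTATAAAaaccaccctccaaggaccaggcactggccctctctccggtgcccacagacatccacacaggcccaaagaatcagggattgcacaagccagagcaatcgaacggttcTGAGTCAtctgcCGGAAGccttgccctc
An AP-1 element, TGACTCA or its reverse complement TGAGTCA, began at position -87 in SERPINB13 and at position -28 in SERPINB8, counted with the start base as 0. SERPINB8 also held TATAAA on both strands in 1 overlapping run and an ETS core, CGGAAG, at position -16. In windows from 250 bases before to 50 bases after the start, searched on both strands, AP-1 was found in 3 of the 10 members (SERPINB7, SERPINB8 and SERPINB13) and in 4 of their 15 RefSeq windows, against 4.95% of 35116 windows of the same length in the RefSeq table. SERPINB7, the third of them, did not pass the test between KO and WT. TATAAA was present in 6 of the 15 windows (11.5% of the 35116 windows), CGGAAG in 4 (19.5%) and CCAAT in 2 (34.6%). The 35116 windows leave out those of 1 chromosome, which holds none of the members. A match describes these letters only.

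SERPINB3 (ENSG00000057149) and SERPINB4 (ENSG00000206073), which inhibit cysteine and chymotrypsin-like serine proteases respectively, were close to the limit of detection. SERPINB3 had 2 and 7 counts in KO and 3 and 0 in WT, with the groups overlapping. SERPINB4 had 10 and 9 counts in KO and 0 in both WT libraries. With the WT libraries set at 3 counts each, the observed KO mean of SERPINB4 was 2.67-fold higher. This value allows for counting error in WT only and takes the KO counts as exact, so it is not a lower limit. Neither gene passed the filter. SERPINB3 shares 23.9% of its 50-nt stretches with SERPINB4, and SERPINB4 shares 24.3% with SERPINB3, so how reads were split between them is uncertain. Summed, the pair had 12 and 16 counts in KO and 3 and 0 in WT. This sum passed the filter only through the KO libraries, where it was high, so it is described without a test.

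Their likeness extends upstream. The RefSeq windows around the starts of SERPINB3 and SERPINB4 were identical at 296 of 300 bases, and 3 of the 4 differing bases fell in the 150 bases before the start, shown here with those bases in capitals (minus strand, chr18:63661894-63662043 for SERPINB3 and chr18:63644257-63644406 for SERPINB4).
SERPINB3: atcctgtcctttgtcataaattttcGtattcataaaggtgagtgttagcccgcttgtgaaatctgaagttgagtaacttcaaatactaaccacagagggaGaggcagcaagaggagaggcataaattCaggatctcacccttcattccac
SERPINB4: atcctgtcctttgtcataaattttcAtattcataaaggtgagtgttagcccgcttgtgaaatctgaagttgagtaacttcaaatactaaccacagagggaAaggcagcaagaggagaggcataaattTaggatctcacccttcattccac
None of the 4 motifs searched was found in either window.

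SERPINB5 (ENSG00000206075), or maspin, has the serpin fold without known inhibition of a protease and marks epithelial cells. Its levels were 31.9 and 28.0 RPKM in KO and 40.1 and 37.9 RPKM in WT, with both KO libraries below both WT libraries. SERPINB5 was lower in KO by a log2 fold change of -0.31 (SE 0.074, adjusted p = 0.000833). The size of this difference was -0.21 without KO 2 (adjusted p = 0.0302) and -0.19 after correction for GC content and gene length (adjusted p = 0.0295). No 50-nt stretch of it is shared with another gene.

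SERPINB2 (ENSG00000197632) inhibits the plasminogen activators, urokinase above all. It stood at 89.0 and 82.4 RPKM in KO and at 91.8 and 106 RPKM in WT. The KO libraries were below the WT libraries on this scale but overlapped them once TMM factors were applied, and the log2 fold change of -0.14 (SE 0.064) did not pass the threshold (adjusted p = 0.0859). It did so when KO 1 was left out (-0.19, adjusted p = 0.0125), when WT 1 was left out (-0.23, adjusted p = 0.0282) and when libraries were scaled by their totals alone (-0.21, adjusted p = 0.00858). It shrank to -0.069 without KO 2 (adjusted p = 0.44), to -0.035 without WT 2 (adjusted p = 0.818) and to -0.039 after correcting for GC content and length (adjusted p = 0.642). SERPINB2 shares 23.7% of its 50-nt stretches with SERPINB10, which was almost without counts.

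SERPINB7 (ENSG00000166396), or megsin, is made by keratinocytes and kidney mesangial cells, and its loss causes a palmoplantar keratosis. KO libraries were at 10.8 and 9.59 RPKM and WT libraries at 11.3 and 12.3 RPKM, so that the groups did not overlap but lay close together. The difference did not pass the test (log2 fold change -0.14, SE 0.12, adjusted p = 0.374), nor did it without any 1 library, with values from -0.23 without KO 1 to -0.049 without KO 2, or after correcting for GC content and length (-0.034).

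On chromosome 6, SERPINB6 (ENSG00000124570), an inhibitor of cathepsin G and trypsin-like proteases, was at 19.8 and 18.1 RPKM in KO and at 24.7 and 23.8 RPKM in WT. Both KO libraries were lower, with a log2 fold change of -0.29 (SE 0.080, adjusted p = 0.00394). Leaving out KO 2 (-0.21, adjusted p = 0.0613) or WT 1 (-0.25, adjusted p = 0.0734) ended this call, and correcting for GC content and length left -0.19 (adjusted p = 0.0481). SERPINB1 (ENSG00000021355), an inhibitor of neutrophil elastase and related proteases, was at 14.6 and 12.7 RPKM in KO and at 15.0 and 16.7 RPKM in WT, and overlapped between the groups after TMM scaling (log2 fold change -0.14, SE 0.10, adjusted p = 0.285). Its value ran from -0.25 without KO 1 to -0.031 without KO 2 and did not pass without any 1 library. SERPINB9 (ENSG00000170542), the granzyme B inhibitor, had 1 count in KO 2 and 0 in the other libraries, which limits it to 3 counts or fewer where none was seen.

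Members were also set against the other genes of their chromosome. The other 190 tested genes of chromosome 18 had a median log2 fold change of -0.79, with 72.1% lower and 1.58% higher in KO, while the other 751 tested genes of chromosome 6 had a median of -0.18, with 30.0% lower and 8.79% higher. The 5 tested chromosome 18 members had a median of -0.14 (2 lower, 1 higher) and the 2 tested chromosome 6 members one of -0.21 (1 lower, 0 higher). Each member was therefore also tested in edgeR against the median of the other genes of its chromosome, with p-values adjusted over that chromosome and the median taken as known.

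By that test 4 of the 5 tested chromosome 18 members lay above the chromosome's median, as did 22.6% of its other genes. The excess was 2.68 for SERPINB13 (SE 0.35, adjusted p = 6.12e-08), 0.65 for SERPINB2 (SE 0.064, adjusted p = 3.16e-10), 0.64 for SERPINB7 (SE 0.12, adjusted p = 3.97e-05) and 0.48 for SERPINB5 (SE 0.074, adjusted p = 1.62e-06), all on the log2 scale. SERPINB8 lay at the median (0.025, SE 0.12, adjusted p = 0.898), above 51.1% of the other chromosome 18 genes. By rank SERPINB2 was above 91.1%, SERPINB7 above 90.5% and SERPINB5 above 84.7% of them. SERPINB5 was thus lower in KO than in WT and yet less reduced than most genes of its chromosome.

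Neither chromosome 6 member passed the same test, at unadjusted p of 0.704 for SERPINB1 and 0.200 for SERPINB6. SERPINB1 differed from the chromosome's median by 0.039 (SE 0.10, adjusted p = 0.791) and SERPINB6 by -0.10 (SE 0.080, adjusted p = 0.326), where 19.3% of the other chromosome 6 genes were above and 16.5% below. They ranked above 53.1% and 40.2% of those genes.

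**Figure D2:**
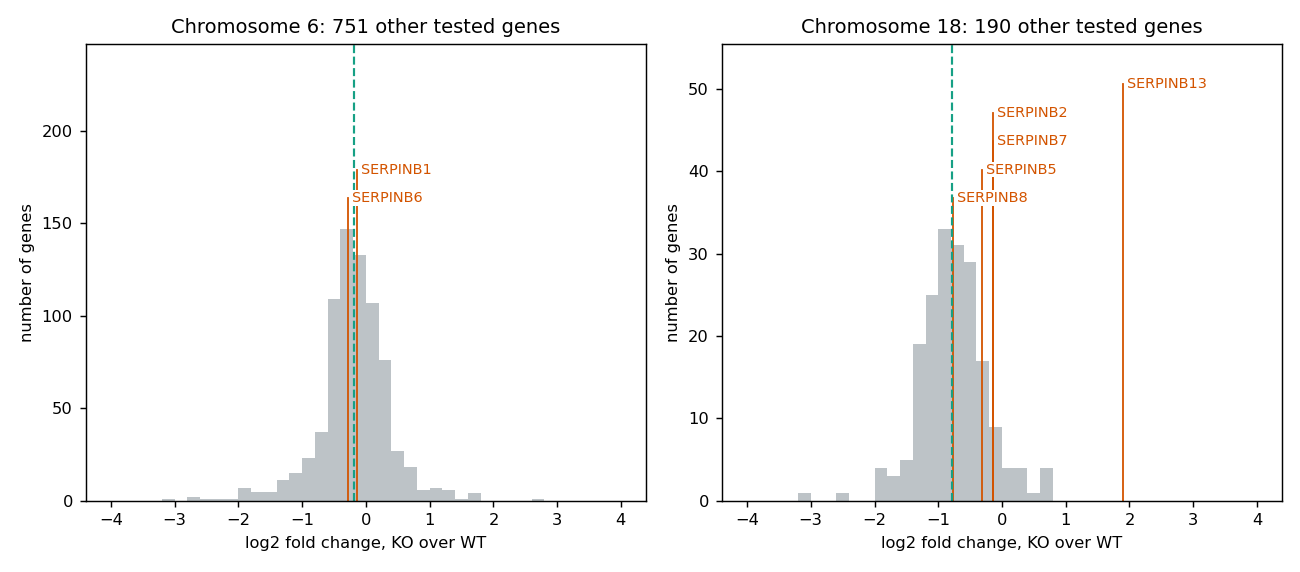
Histograms of the log2 fold change in KO over WT for the other 751 tested genes of chromosome 6 (left) and the other 190 of chromosome 18 (right), with their medians as dashed lines and the tested serpins as orange lines of arbitrary height. SERPINB1 and SERPINB6 sit near the median of -0.18, SERPINB8 at the median of -0.79, and the other 4 chromosome 18 serpins to the right of theirs.

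The nearest tested genes on either side of each cluster were also compared. On chromosome 18 those before SERPINB5 ended 54.3 to 889 kb from the cluster, while those beyond SERPINB8 began 3487 to 6269 kb away, so the latter are not close by. Of the 10 nearest tested neighbours of the chromosome 18 cluster, 5 on each side, 8 were lower in KO and 0 higher by edgeR and by DESeq2, with all log2 fold changes negative (from -2.49 to -0.52) and a median of -1.02, where 72.1% of the other tested chromosome 18 genes were lower. CCDC102B, at the lower end, had 9 and 7 counts in KO against 46 and 31 in WT and passed the filter only through WT. With at least 10 counts required in every library it dropped out and 7 neighbours were lower. Next came ZCCHC2 (-1.30, SE 0.17, adjusted p = 7.57e-08), RTTN (-1.18, SE 0.15, adjusted p = 2.88e-08) and SOCS6 (-1.07, SE 0.18, adjusted p = 9.74e-06). VPS4B, an ATPase of membrane scission that lies next to SERPINB5, was lower, at a mean of 10.6 RPKM in KO against 22.3 RPKM in WT (adjusted p = 1.14e-11). On the SERPINB8 side, DSEL was at -0.52 and did not pass (SE 0.23, adjusted p = 0.0702). When libraries were scaled by their totals alone DSEL passed (-0.59, adjusted p = 0.0374) and 9 neighbours were lower. TMX3, the next tested gene, was at -1.05 (SE 0.089, adjusted p = 4.80e-12). BCL2, the inhibitor of apoptosis, was at -0.60 (SE 0.37, adjusted p = 0.212). SERPINB13, SERPINB5, SERPINB7 and SERPINB2 had log2 fold changes above the highest of these 10 neighbours, and SERPINB8 lay within their range.

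Around the chromosome 6 cluster, within 1218 kb before and 182 kb after it, 1 of the 10 neighbours was higher, 2 were lower and the median was -0.13, beside 8.79% higher and 30.0% lower among the other tested chromosome 6 genes. TUBB2A, a tubulin gene, was higher at 0.68 (SE 0.20, adjusted p = 0.00639), a call lost with DESeq2 (adjusted p = 0.0781) and with correction for GC content and length (0.39, adjusted p = 0.129), and RP1-80B9.2 was lower at -1.78 (SE 0.42, adjusted p = 0.000884). RIPK1, a kinase of cell death signalling, was also lower, at -0.33 (SE 0.10, adjusted p = 0.00947). RIPK1 lost its call without WT 1 (-0.32, adjusted p = 0.0736) or without WT 2 (-0.33, adjusted p = 0.0517), and with DESeq2 (adjusted p = 0.0797).

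**Figure D3:**
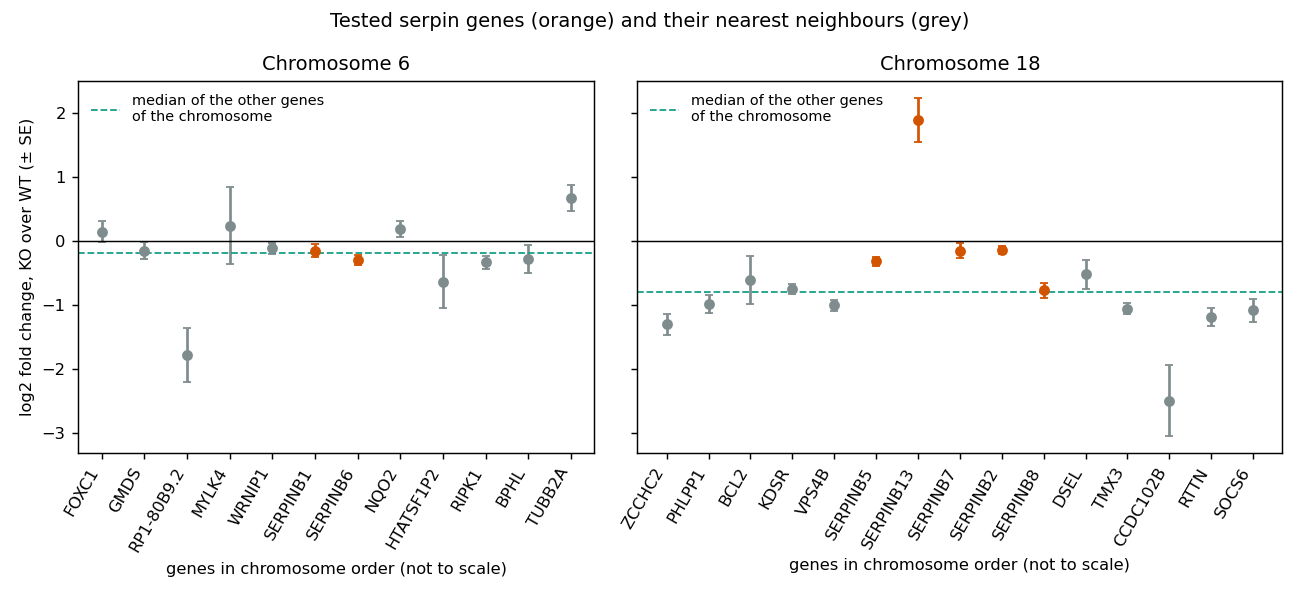
Log2 fold change in KO over WT with its SE for the tested serpins (orange) and the 5 nearest tested genes on each side (grey), in chromosome order and not to scale, for chromosome 6 (left) and chromosome 18 (right), with the median of the chromosome's other genes dashed. On chromosome 18 the neighbours lie between -2.49 and -0.52, below SERPINB5, SERPINB13, SERPINB7 and SERPINB2.

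Summed over members, both clusters were at lower levels in the KO libraries. The chromosome 6 members summed to 34.4 and 30.7 RPKM in KO and to 39.7 and 40.5 RPKM in WT (-18.7% between the means of 32.6 ± 2.58 and 40.1 ± 0.570, SD, n = 2 each). The chromosome 18 members summed to 140 and 128 RPKM in KO and to 154 and 167 RPKM in WT (-16.9%, 134 ± 8.47 against 161 ± 9.25, SD, n = 2 each). The sums were not tested in a model, and an exact permutation test of 2 against 2 libraries cannot go below p = 0.333. The ratio of the chromosome 18 sum to the chromosome 6 sum was 4.06 and 4.15 in KO and 3.89 and 4.13 in WT, so that the groups overlapped.

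Ratios between members describe the make-up of the chromosome 18 cluster. The ratio of SERPINB13 to SERPINB8 in RPKM was 0.217 and 0.342 in KO against 0.0407 and 0.0460 in WT. SERPINB8 relative to SERPINB7 was 0.579 and 0.559 in KO against 0.918 and 0.833 in WT. Both ratios follow from the differences of SERPINB13 and SERPINB8 given above and are no separate result. The ratio of SERPINB2 to SERPINB5 was 2.79 and 2.95 in KO and 2.29 and 2.81 in WT, with overlap.

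Of 22 listed proteases that clade B serpins act on or bear on, the receptor PLAUR among them, 12 were tested. In KO 6 were higher and 1 was lower, beside 20.4% and 19.1% of all genes tested, and 5 did not pass, with a median log2 fold change of 0.20. With DESeq2 4 were higher, since CTSS (adjusted p = 0.104) and FURIN (adjusted p = 0.103) lost their calls, and limma on log2 RPKM also gave 4. Among the lysosomal cathepsins, CTSV was higher at 0.90 (SE 0.14, adjusted p = 2.35e-06), CTSH at 0.88 (SE 0.11, adjusted p = 5.32e-08) and CTSB at 0.66 (SE 0.054, adjusted p = 2.34e-12). CTSL and CTSK, which SERPINB13 inhibits, did not pass (0.18, SE 0.076, adjusted p = 0.0542 and -0.38, SE 0.39, adjusted p = 0.482). With at least 10 counts required in every library CTSL passed (0.18, adjusted p = 0.0445) and 7 proteases were higher. Without KO 2 CTSL was at 0.28. CTSS was higher at 0.43 (SE 0.14, adjusted p = 0.0130), a call lost without KO 2 (0.33, adjusted p = 0.129) and without WT 1 (0.42, adjusted p = 0.0699).

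Among the partners of the abundant SERPINB2 and of SERPINB8, PLAU was lower, PLAUR and FURIN were higher and PLAT did not pass. Each of these calls ended under some alternative. PLAU, which encodes urokinase, had mean levels of 105 RPKM in KO and 123 RPKM in WT and was lower at -0.16 (SE 0.054, adjusted p = 0.0162), a call that ended without WT 1 (-0.16, adjusted p = 0.129) or WT 2 (-0.16, adjusted p = 0.139). PLAT, the tissue-type activator, was at -0.15 and did not pass (SE 0.11, adjusted p = 0.296). The urokinase receptor PLAUR was higher at 0.34 (SE 0.088, adjusted p = 0.00187), which became 0.11 (adjusted p = 0.305) when GC content and gene length were corrected for. FURIN was higher at 0.22 (SE 0.078, adjusted p = 0.0216), a call that ended with the same correction (0.022, adjusted p = 0.857). It also ended with scaling by library totals alone (0.15, adjusted p = 0.12) and by limma on log2 RPKM (adjusted p of 0.178 and 0.182). Without KO 1 FURIN was at 0.17 and without WT 2 at 0.15, and neither value passed. The inflammatory caspases CASP1 and CASP4 were at -0.12 (adjusted p = 0.546) and -0.030 (adjusted p = 0.738), but with the same correction CASP4 turned to 0.21 and passed (adjusted p = 0.00241). GZMB, the target of SERPINB9, had at most 5 counts in a library, PRTN3, a neutrophil protease, had at most 7, and neither was tested. CTSG and ELANE were not analysed here.

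Protease inhibitors outside clade B were listed for comparison. Of 20 listed, 14 were tested, of which 6 were higher and 2 lower, beside 20.4% and 19.1% of all genes tested. The other 6 did not pass, and the median log2 fold change was 0.13. By limma on log2 RPKM CSTA was also lower (-0.20, adjusted p = 0.021), which gave 3 lower. SPINT1 became lower after correcting for GC content and length (-0.21, adjusted p = 0.0296). SLPI, a secreted inhibitor of leukocyte elastase, was higher at 1.42 (SE 0.17, adjusted p = 2.74e-08), and SERPINE2, a secreted inhibitor of thrombin and urokinase, at 1.22 (SE 0.11, adjusted p = 5.71e-11). The cystatins CST6 (0.97, SE 0.095, adjusted p = 1.68e-10) and CST3 (0.90, SE 0.074, adjusted p = 2.22e-12), which inhibit cathepsins, were also higher. SERPINA1, the main plasma inhibitor of elastase, was lower at -0.43 (SE 0.086, adjusted p = 9.06e-05). SERPINI1, or neuroserpin, was lower at -0.72 (SE 0.26, adjusted p = 0.0239), a call that ended without KO 1 (-0.59, adjusted p = 0.127) and without WT 1 (-0.63, adjusted p = 0.161), with DESeq2 (adjusted p = 0.159) and after correcting for GC content and length (adjusted p = 0.0554).

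**Figure D4:**
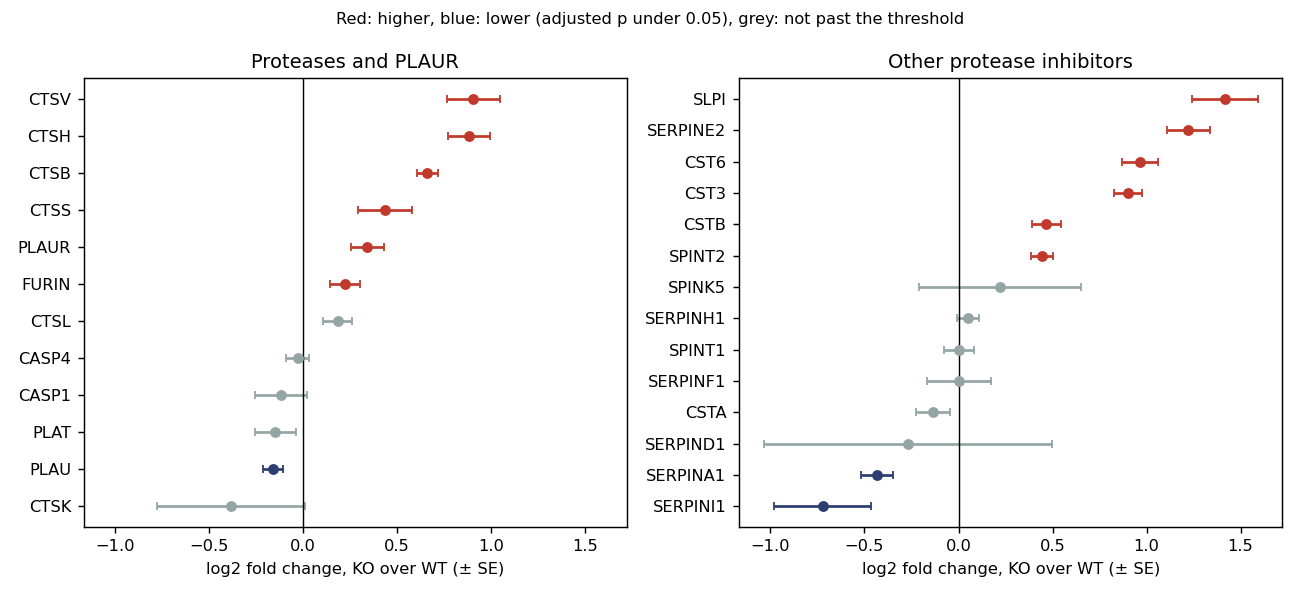
Log2 fold change in KO over WT with its SE for the tested proteases with PLAUR (left) and the tested protease inhibitors outside clade B (right). Red points are higher and blue points lower at an adjusted p under 0.05, 6 and 1 on the left and 6 and 2 on the right, and grey points did not pass.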

How the data were processed

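RNA-seq of 2 KO and 2 WT libraries was used. Before deposition the authors sequenced 50-nt reads, and the submitters' processing notes name CASAVA, STAR 2.5, HTSeq, edgeR 3.16.5, DESeq2 version 2 and hg19. The deposited counts are raw reads per gene for 26726 Ensembl identifiers, and the deposited RPKM values divide the same counts by 1 length per gene and the library total (spread at most 1.8e-05%). Use of strand is not given in the sources used here. The files hold no coordinates, and those printed come from GENCODE 29 or, for sequences, RefSeq.

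Counts were tested with edgeR 4.0.16 in R 4.3.3 by glmQLFit and glmQLFTest after filterByExpr, which left 15104 genes, and TMM (factors 0.975 to 1.03). P-values were Benjamini-Hochberg adjusted over all genes tested and measure the spread between duplicate cultures. The biological coefficient of variation was 5.88%. Replicates differed beyond counting noise (chi-square per degree of freedom 3.48 in KO and 2.87 in WT). Alternatives used the edgeR exact test, DESeq2 1.42.0, limma 3.58.1 on log2 RPKM, other scalings and filters, the study's thresholds, a replicate block and left-out libraries. The correction for GC content and length (available for 97.2% of tested genes) and the tests against a chromosome's median were added after seeing the data. All 10 members, ATAD3A and the target proteases given beside a serpin were named, and in each list (the 5 nearest tested genes on each side of a cluster included) up to 4 genes past the threshold in each direction, by size of log2 fold change. VPS4B, TMX3, DSEL, BCL2, ANKRD29, LAMA3, CSTA and SPINT1 were named after their values were seen. A further inhibitor is not reported here. The members and lists were chosen with earlier results of these data known. The scripts were tested on simulated data. CTSL and CTSV, listed under older symbols, were matched by identifier.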

Additional observations from a re-analysis of the deposited data

How the results depend on the processing

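No tested member's log2 fold change changed sign under any of its 14 alternatives. With the study's thresholds (unadjusted p under 0.05 with a minimum fold) 1 member in all was lower, on chromosome 18, and 0 on chromosome 6. With no filter on low counts 2 members were higher, both on chromosome 18, since SERPINB4 then entered the test. With 0 counts in both WT libraries and 10 and 9 in KO, its call there is not counted as support, and DESeq2 gave it no adjusted p. With DESeq2, 1 other inhibitor and 1 chromosome 6 neighbour were lower and 0 chromosome 6 neighbours higher. After correction for GC content and length 0 chromosome 6 neighbours were higher, 3 were lower (GMDS added, -0.37, adjusted p = 0.023) and the chromosome 18 members' median was -0.039. Without its most abundant member, the log2 ratio of the summed level was -0.22 on chromosome 6 (without SERPINB6) and -0.36 on chromosome 18 (without SERPINB2).

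Leaving out 1 library in turn gave 2 to 4 members lower in all, 0 to 1 on chromosome 6 and 2 to 3 on chromosome 18, 0 to 1 protease lower, 1 to 2 other inhibitors lower and 1 to 2 chromosome 6 neighbours lower. Median log2 fold changes ran from -0.30 to -0.12 for chromosome 6 members and from -0.23 to -0.069 for chromosome 18 members, and the log2 ratio of the chromosome 6 sum from -0.38 to -0.22. The log2 fold change of SERPINB13 ran from 0.84 (limma on log2(RPKM + 1), where the pseudocount shrinks low genes) to 2.10, and passed in each alternative. Against the chromosome 18 median, SERPINB13, SERPINB2, SERPINB5 and SERPINB7 stayed above in each of 10 alternatives. Their excesses ran from 2.496 to 2.91, 0.56 to 0.75, 0.40 to 0.61 and 0.58 to 0.77, in that order. SERPINB8 ran from -0.070 to 0.175 against the same median. Against the chromosome 6 median, SERPINB1 ran from -0.063 to 0.149 and SERPINB6 from -0.167 to -0.012. SERPINB8, SERPINB1 and SERPINB6 passed in none of these alternatives.

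With the replicate block SERPINB13 was at 1.88 and SERPINB8 at -0.77, and no member's call changed. The KO 1 minus KO 2 and WT 1 minus WT 2 differences correlated at -0.022 over 15104 genes, so libraries of equal number showed no shared deviation. Whether the cultures were paired is not stated in the sources used here. Depth limits SERPINB3, SERPINB4 and SERPINB9, which had 10 counts or fewer per library.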
